A study of Homo sapiens with 9 samples.

Results

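The 10 miRNAs described here are hsa-miR-34a-5p, hsa-miR-138-5p, hsa-miR-140-3p, hsa-miR-142-5p, hsa-miR-155-5p, hsa-miR-197-3p, hsa-miR-340-5p, hsa-miR-513a-5p, hsa-miR-570-3p and hsa-miR-873-5p, written below without the species prefix hsa. They were chosen by name, out of 2652 mature miRNA names in the count table, as miRNAs outside the leading families of this experiment that publications have linked to PD-L1. PD-L1 is the immune checkpoint ligand encoded by CD274. They were measured in lysates of ES-2, an established ovarian cancer cell line that the labels give as wild type and untreated in every library. The study asked which miRNAs of these cells associate on the PD-L1 3'UTR and used miTRAP, in which a bait RNA with MS2 loops is held on amylose resin through a maltose-binding MS2 fusion protein and retains miRNAs from the lysate. The 9 small RNA libraries comprised 3 of the input lysate, 3 of RNA retained by an MS2 control RNA and 3 of RNA retained by the PD-L1 3'UTR. All were made from lysates of the same line, and no label says whether the replicates came from separate cultures, so p-values measure the spread between these libraries only. The study's methods state a larger amount of the PD-L1 bait than of the MS2 bait, so bait sequence and bait amount cannot be told apart in any comparison of the trapped groups. A miRNA is called retained here when it was higher on the PD-L1 3'UTR than on the MS2 control and also higher than in the input.

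A miRNA is loaded into an Argonaute protein and guides it to mRNAs, mostly through pairing of the seed, bases 2 to 8 of the miRNA, with complementary sites in 3'UTRs. Each hairpin can give a 5p and a 3p strand with different seeds. PD-L1 on a tumor cell binds PD-1 on T cells and restrains them, and its long 3'UTR has been the subject of many miRNA studies. The listed miRNAs differ in their usual sources. miR-155-5p is made from the BIC transcript in activated lymphocytes and macrophages and is high in many tumors. miR-142 is made mainly by blood cells. miR-34a-5p is induced by p53. miR-138-5p is known from brain and miR-140 from cartilage. miR-197-3p has been described as acting on PD-L1 indirectly, through CKS1B and STAT3.

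The mature sequences carry the base pairing that a 3'UTR bait can offer, so they are shown for all 10 miRNAs, 5′ to 3′, with the seed in capitals. All 10 matched an entry of the RefSeq table (GRCh38.p14).
miR-155-5p: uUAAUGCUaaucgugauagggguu
miR-340-5p: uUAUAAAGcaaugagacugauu
miR-142-5p: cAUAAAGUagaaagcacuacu
miR-138-5p: aGCUGGUGuugugaaucaggccg
miR-140-3p: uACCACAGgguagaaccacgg
miR-197-3p: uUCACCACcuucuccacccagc
miR-873-5p: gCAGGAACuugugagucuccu
miR-34a-5p: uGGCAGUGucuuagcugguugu
miR-513a-5p: uUCACAGGgaggugucau
miR-570-3p: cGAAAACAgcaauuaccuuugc
No pair of the 10 shared a whole seed. The seeds of miR-142-5p and miR-340-5p share the 6 bases AUAAAG, shifted by 1 position. Outside the list, the seed of miR-34a-5p is shared by miR-449a and miR-449b-5p, which had 58 and 11 counts in all 9 libraries together, and that of miR-142-5p by miR-5590-3p, which had 0. None of these seed partners passed the filter on low counts.

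The 10 miRNAs come from 12 hairpins, since miR-138-5p and miR-513a-5p each have 2 identical copies. On GRCh38.p14, miR-155-5p lies at chr21:25573983-25574006 (+), miR-340-5p at chr5:180015361-180015382 (-) and miR-142-5p at chr17:58331283-58331303 (-). miR-138-5p lies at chr3:44114234-44114256 (+) and chr16:56858527-56858549 (+), and miR-140-3p at chr16:69933142-69933162 (+). In the GENCODE annotation of GRCh37, MIR140 was in an intron of WWP2, MIR340 in an intron of RNF130 and MIR873 in an intron of LINGO2. MIR197 overlapped an exon of GNAI3, MIR34A an exon of its host lncRNA MIR34AHG, and MIR570 was in an intron of the lncRNA MUC20-OT1. Neither copy of MIR138 lay within another gene.

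The input libraries held 3794799 to 5983577 miRNA counts, the MS2 control libraries 1156261 to 2236535 and the PD-L1 3'UTR libraries 672824 to 1237652. Levels are given in CPM, counts relative to the library total scaled by TMM factors, on which 3 counts corresponded to between 0.675 and 4.02 CPM depending on the library. In each group, replicate 1 differed more from replicates 2 and 3 than those differed from each other, by chi-square per degree of freedom. The values were 177 and 244 against 12.5 in the input and 141 and 167 against 39.0 on the MS2 control. On the PD-L1 3'UTR they were 109 and 183 against 19.5. The cause was not tested. Replicate 1 of the PD-L1 3'UTR group also stood apart in miRNAs of other cell types. Its summed level of 3 muscle miRNAs was 1831 CPM, against 102 and 28.3 CPM in replicates 2 and 3, 44.8 to 131 CPM on the MS2 control and 1.58 to 4.04 CPM in the input. The red blood cell miRNA miR-451a was at 735 CPM there and at most 83.9 CPM in any other library, and the hepatocyte miRNA miR-122-5p was at 161 CPM, against 0 and 0.725 CPM in the other PD-L1 3'UTR libraries and 40.1 to 50.3 CPM on the MS2 control. Its summed level of 6 epithelial miRNAs was 303 CPM, against at most 63.0 CPM in replicates 2 and 3. That of 2 neuronal miRNAs, 619 CPM, lay between their 382 and 645 CPM. Most of this sum was miR-9-5p, which averaged 225 CPM in the input. The other, miR-124-3p, was at 9.90 CPM in replicate 1 and at 0 in replicates 2 and 3. Fold changes of the tested members on the PD-L1 3'UTR are therefore also given without replicate 1 of that group. So are profiles, counts of calls and the strand shares of hairpins with both strands tested. Counts of groups that did not overlap are given with all libraries only. Levels are given for each library or as ranges that include it.

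Of the 10 miRNAs, 7 had more than 3 counts in each input library and are called expressed in ES-2. miR-155-5p led with 9679 ± 566 CPM (SD, n = 3), which placed it 19th of the 2652 names. miR-140-3p followed with 1025 ± 52.7 CPM and miR-197-3p with 960 ± 342 CPM, and their libraries overlapped. miR-340-5p had 324 ± 24.4 CPM and miR-138-5p 278 ± 32.7 CPM, which also overlapped, and miR-142-5p had 126 ± 21.2 CPM. miR-873-5p was far lower at 6.37 ± 1.15 CPM. The order was the same per base of mature sequence, since lengths ran only from 18 to 24 bases. miR-34a-5p had 4, 3 and 8 counts in the input and fell short of the rule. miR-513a-5p and miR-570-3p had 0 counts in all 9 libraries, which allows at most 0.675 to 1.01 CPM per input library (3 counts, counting error only).

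**Figure D1:**
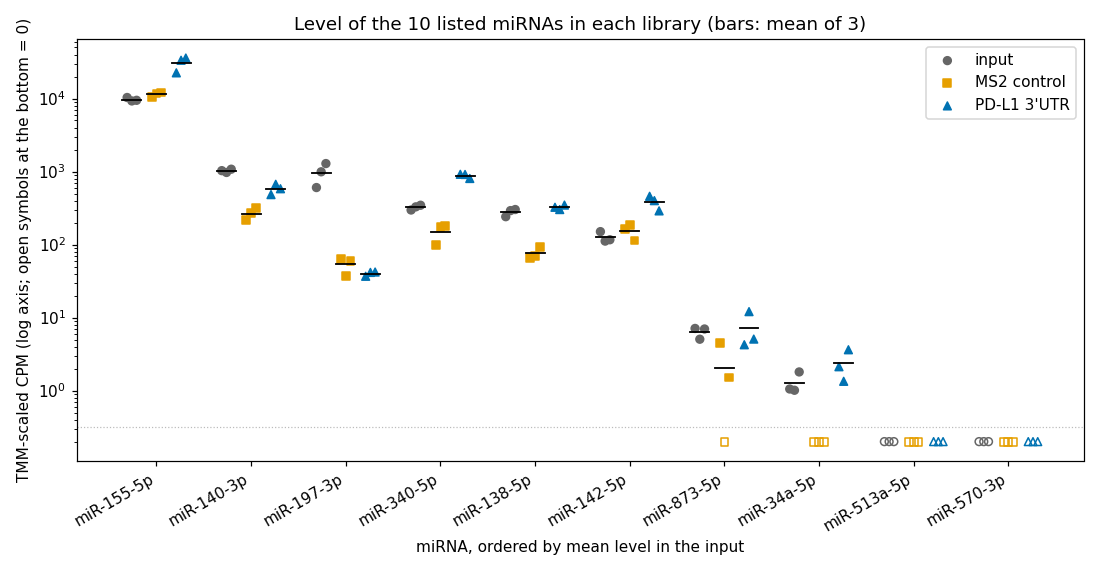
TMM-scaled CPM (log axis) of the 10 listed miRNAs in each of the 9 libraries, ordered by mean input level, with horizontal bars at the mean of 3 replicates and open symbols at the bottom for 0. miR-155-5p, miR-340-5p and miR-142-5p had all 3 PD-L1 3'UTR libraries above all input and MS2 control libraries, whereas miR-197-3p fell in both trapped groups.

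Of the 10, 6 passed the filter on low counts and were tested, among 408 miRNAs in all. Against the MS2 control, 5 of the 6 were higher on the PD-L1 3'UTR, 0 were lower and miR-197-3p was not called. Of all 408 tested miRNAs, 60% were called in this comparison, 31.4% higher and 28.7% lower. The same 5 had all PD-L1 3'UTR libraries above all MS2 control libraries, as 32.6% of all tested miRNAs did, and 0 had all of them below, as 33.1% did. Against the input, 5 of the 6 were called, where 66.4% of all tested were. Of these, 3 were higher (34.1% of all tested) and 2 were lower (32.4% of all tested), and in each case the groups did not overlap (37.3% and 37.5% of all tested). The 3 that were higher than both were miR-155-5p, miR-340-5p and miR-142-5p, against 18.9% of all tested miRNAs. Without PD-L1 3'UTR replicate 1 the counts were again 5, 5 in either direction and 3. Of the 469 miRNAs tested then, 25.2% were higher and 28.6% lower than on the MS2 control. Against the input 27.5% were higher and 31.6% lower, and 13.9% were higher than both. The median log2 fold change of the 6 was 1.37 against the MS2 control, where that of all 408 was 0.02, and 0.83 against the input, where that of all was 0.04. Without that library they were 1.45 and 0.76, where those of all were -0.10 and -0.14. Together the 10 miRNAs took 0.935% to 0.951% of the input counts, 1.40% to 1.47% of the MS2 control counts and 2.82% to 4.25% of the PD-L1 3'UTR counts, most of it miR-155-5p.

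miR-155-5p was the most abundant of the retained miRNAs. It was at 10323, 9261 and 9452 CPM in input replicates 1, 2 and 3, at 10594, 11745 and 12050 CPM on the MS2 control and at 22473, 33398 and 35824 CPM on the PD-L1 3'UTR. The PD-L1 3'UTR libraries were all above the others, and replicate 1, the library that stood apart, was the lowest of them. The level was 2.67-fold that of the MS2 control (log2 1.41 ± 0.17 SE, adjusted p = 2.85e-05, edgeR) and 3.16-fold that of the input (log2 1.66 ± 0.17, adjusted p = 1.32e-05). Without replicate 1 these were 1.63 and 1.79 on the log2 scale. The rise placed miR-155-5p 7th of all names in the PD-L1 3'UTR group. The MS2 control libraries also lay above the input libraries, but the difference did not pass the test (log2 0.24, 95% interval -0.12 to 0.61, adjusted p = 0.20).

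miR-340-5p showed the largest fold over the MS2 control among the 6. It was at 297, 328 and 345 CPM in the input, at 97.5, 173 and 179 CPM on the MS2 control and at 916, 911 and 803 CPM on the PD-L1 3'UTR. The 3 groups did not overlap, and their order was MS2 control, input, PD-L1 3'UTR. It was 5.84-fold higher than on the MS2 control (log2 2.55 ± 0.23, adjusted p = 3.73e-06) and 2.71-fold higher than in the input (log2 1.44 ± 0.22, adjusted p = 0.000241). Without PD-L1 3'UTR replicate 1 the log2 fold changes were 2.55 and 1.35.

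miR-142-5p, the 5p strand of the blood cell hairpin, was at 150, 111 and 116 CPM in the input and at 163, 183 and 113 CPM on the MS2 control, and these groups overlapped. With the PD-L1 3'UTR it was at 458, 399 and 289 CPM, above every other library. It was 2.49-fold higher than on the MS2 control (log2 1.32 ± 0.24, adjusted p = 0.00073) and 3.03-fold higher than in the input (95% interval 1.06 to 2.14 on the log2 scale, adjusted p = 0.000229). The highest value was in replicate 1, where other blood cell miRNAs were also high. The summed level of 7 blood cell miRNAs, miR-142-5p and miR-142-3p included, was 1508 CPM in that library, 588 and 544 CPM in replicates 2 and 3, 318 to 364 CPM on the MS2 control and 193 to 268 CPM in the input. In every library but PD-L1 3'UTR replicate 1, most of this sum was miR-142-5p and miR-142-3p. miR-142-3p was at 193 CPM in replicate 1 and at 143 and 174 CPM in replicates 2 and 3. The myeloid miRNA miR-223-3p had 30 counts in replicate 1 and at most 3 in any other library, at 0 in 5 of the 9. Without replicate 1 miR-142-5p was still called in both comparisons, at log2 1.2 ± 0.25 (adjusted p = 0.00143) against the MS2 control and log2 1.40 ± 0.25 (adjusted p = 0.000457) against the input.

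miR-138-5p and miR-140-3p were higher on the PD-L1 3'UTR than on the MS2 control but not higher than in the input. miR-138-5p was at 241, 292 and 302 CPM in the input, at 65.9, 70.1 and 93.7 CPM on the MS2 control and at 324, 301 and 347 CPM on the PD-L1 3'UTR. The MS2 control libraries were the lowest, and the input and PD-L1 3'UTR libraries overlapped. It was 4.24-fold higher than on the MS2 control (log2 2.08 ± 0.19, adjusted p = 4.18e-06), which was itself below the input (log2 -1.86 ± 0.19, adjusted p = 1.16e-05). Against the input the difference was 0.22 ± 0.18 (95% interval -0.18 to 0.62, adjusted p = 0.295). When libraries were scaled by their totals, without TMM factors, it was 0.79 (adjusted p = 0.00256), which would make miR-138-5p the fourth retained miRNA. Without PD-L1 3'UTR replicate 1 the log2 fold changes were 2.12 against the MS2 control and 0.17 against the input. Scaling by totals moved the median of all tested miRNAs against the input by 0.57, and the share of calls that were higher from 51.3% to 68.1%.

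miR-140-3p was at 1028, 971 and 1076 CPM in the input, at 216, 267 and 315 CPM on the MS2 control and at 483, 669 and 581 CPM on the PD-L1 3'UTR. The groups did not overlap, and the PD-L1 3'UTR libraries lay between the others. It was 2.17-fold higher than on the MS2 control (log2 1.12 ± 0.18, adjusted p = 0.000317) and 1.78-fold lower than in the input (log2 -0.83 ± 0.18, adjusted p = 0.00207). Without PD-L1 3'UTR replicate 1 these were 1.27 and -0.77. The fall against the input was not called with library totals (log2 -0.26, adjusted p = 0.17). In the MS2 control it was lower than in the input by -1.95 ± 0.18 on the log2 scale (adjusted p = 7.30e-06).

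miR-197-3p was expressed about as highly as miR-140-3p but was far lower in both trapped groups. It was at 603, 991 and 1286 CPM in the input, at 63.9, 36.8 and 59.7 CPM on the MS2 control and at 36.8, 41.5 and 42.0 CPM on the PD-L1 3'UTR. All 6 trapped libraries lay far below the input, and the trapped groups overlapped each other. The level fell 18.0-fold on the MS2 control (log2 -4.17 ± 0.32, adjusted p = 1.59e-06) and 23.9-fold on the PD-L1 3'UTR (log2 -4.58 ± 0.33, adjusted p = 8.48e-07). Between the trapped groups the difference was -0.41 ± 0.30 (95% interval -1.08 to 0.26, adjusted p = 0.265). It was -0.31 and that from the input -4.58 without PD-L1 3'UTR replicate 1. When the MS2 control was set against the input, 4 of the 6 tested miRNAs were called (69.9% of all tested), all of them lower (37% of all tested), with groups that did not overlap (39.7% of all tested), and 0 were called higher (32.8% of all tested). The 4 were miR-138-5p, miR-140-3p, miR-197-3p and miR-340-5p, and the median of the 6 was -1.49, where that of all 408 was 0.02. Among the 6, only miR-155-5p had all MS2 control libraries above all input libraries, which 35.8% of all tested miRNAs did.

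**Figure D2:**
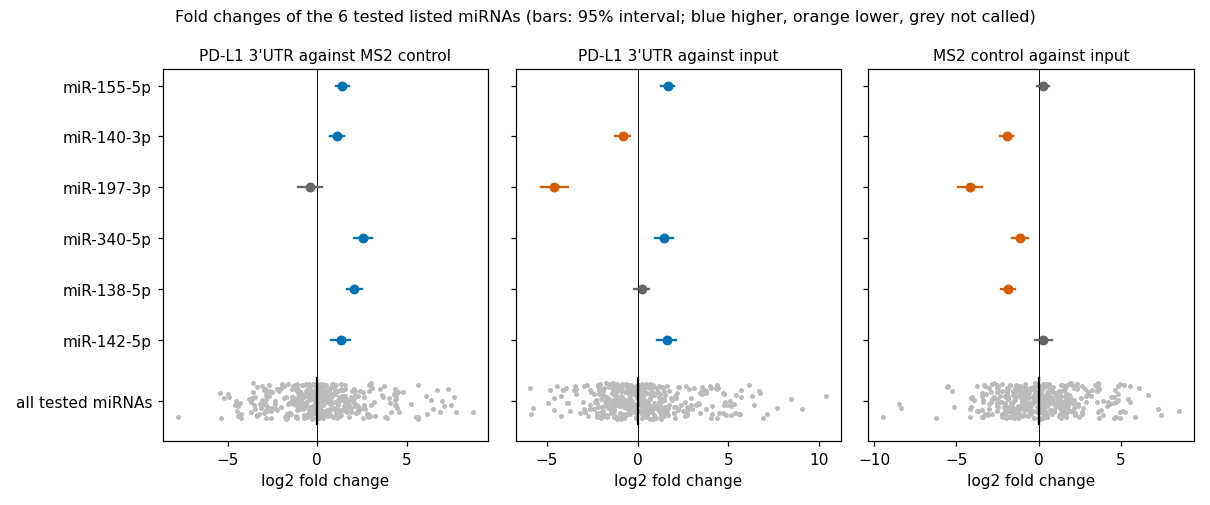
Log2 fold changes with 95% intervals of the 6 tested miRNAs in the 3 comparisons, with all 408 tested miRNAs as grey points and their median as a vertical tick. Blue marks miRNAs called higher, orange lower and dark grey not called. The same 3 miRNAs, miR-155-5p, miR-340-5p and miR-142-5p, are blue in both comparisons of the PD-L1 3'UTR. These comparisons share the PD-L1 3'UTR libraries.

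The remaining 4 miRNAs were not tested with the filter. miR-873-5p had 27, 15 and 31 counts in the input, 7, 0 and 2 on the MS2 control and 6, 9 and 7 on the PD-L1 3'UTR. Its levels of 4.24, 12.1 and 5.07 CPM on the PD-L1 3'UTR overlapped those of the input, 7.09, 5.05 and 6.98 CPM, and those of the MS2 control, 4.52, 0 and 1.51 CPM. In a fit without the filter its difference from the MS2 control was 1.88 (adjusted p = 0.0931) and that from the input -0.16 (adjusted p = 0.911). In the same fit it was lower on the MS2 control than in the input (log2 -2.04, adjusted p = 0.0388). miR-34a-5p had 3, 1 and 5 counts on the PD-L1 3'UTR and 0 in all 3 MS2 control libraries. The limit that 0 counts allow in those libraries, 1.19 to 2.27 CPM, overlaps its 1.34 to 3.62 CPM on the PD-L1 3'UTR. In the fit without the filter it was called higher than on the MS2 control (adjusted p = 0.0384) and was not called against the input (log2 0.63, adjusted p = 0.744) or between the MS2 control and the input (adjusted p = 0.0672). With the MS2 control at 0, the size of the fitted fold depends on the prior count and gives no bound, so none is given. miR-513a-5p and miR-570-3p, at 0 throughout, could be present at up to 2.12 to 4.02 CPM in a PD-L1 3'UTR library.

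The strands of a hairpin often moved differently. Their mature sequences, again with the seed in capitals, are shown for the 4 hairpins whose strands were both tested, because the strands of a hairpin differ in seed.
miR-140-5p: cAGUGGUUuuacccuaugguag
miR-142-3p: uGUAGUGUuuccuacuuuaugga
miR-340-3p: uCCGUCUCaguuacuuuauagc
miR-138-1-3p: gCUACUUCacaacaccagggcc
miR-140-5p was at 74.9, 72.1 and 81.0 CPM in the input, at 90.4, 104 and 99.0 CPM on the MS2 control and at 2492, 2672 and 2943 CPM on the PD-L1 3'UTR. It was 27.6-fold higher than on the MS2 control (log2 4.79 ± 0.15, adjusted p = 1.87e-09) and 35.5-fold higher than in the input (log2 5.15 ± 0.16, adjusted p = 3.72e-09). Without PD-L1 3'UTR replicate 1 these were 4.87 and 5.15. The listed strand, miR-140-3p, took 93.1% ± 0.106 of the hairpin's reads in the input, 72.8% ± 2.92 on the MS2 control and 17.6% ± 2.11 on the PD-L1 3'UTR (SD, n = 3), where replicates 2 and 3 had 18.3% on average. In every PD-L1 3'UTR library the less abundant strand of the input thus outnumbered the listed strand. Such a share compares strands within a library and does not depend on scaling between libraries.

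miR-340 showed a different pattern. Its listed strand took 89.2% ± 2.14 of the reads in the input and 87.7% ± 2.70 on the PD-L1 3'UTR, but 34.7% ± 5.51 on the MS2 control. The other strand, miR-340-3p, was at no more than 45.5 CPM in the input, 244 to 304 CPM on the MS2 control and 100 to 144 CPM on the PD-L1 3'UTR. It was thus higher on the MS2 control than in the input (log2 2.82 ± 0.21, adjusted p = 1.59e-06), where miR-340-5p was lower (log2 -1.11 ± 0.22, adjusted p = 0.00109). It was lower on the PD-L1 3'UTR than on the MS2 control (log2 -1.17 ± 0.20, adjusted p = 0.000513), where miR-340-5p was higher. Against the input, miR-340-3p was higher on the PD-L1 3'UTR (log2 1.65 ± 0.21, adjusted p = 6.32e-05), as miR-340-5p was. In a fit with PD-L1 3'UTR replicate 1 left out, its log2 fold changes were -1.13 against the MS2 control and 1.61 against the input. The listed strand then took 87.4% on average.

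In miR-138 the listed strand took 77.4% ± 1.98 of the reads in the input, 53.6% ± 6.69 on the MS2 control and 94.2% ± 0.769 on the PD-L1 3'UTR, or 94.1% without replicate 1. miR-138-1-3p was at 67.0 to 99.9 CPM in the input, 42.6 to 84.6 CPM on the MS2 control and 18.1 to 21.4 CPM on the PD-L1 3'UTR, and was lower there than on the MS2 control (log2 -1.83 ± 0.31, adjusted p = 0.00045, and -1.77 without PD-L1 3'UTR replicate 1). In miR-142 the listed strand took 57.5% ± 1.57 in the input, 56.7% ± 5.29 on the MS2 control and 68.8% ± 5.73 on the PD-L1 3'UTR, or 68.0% without replicate 1. miR-142-3p was higher on the PD-L1 3'UTR than in the input (log2 0.86 ± 0.20, adjusted p = 0.00371) and than on the MS2 control (log2 0.58 ± 0.20, adjusted p = 0.0313). The last call rested on single libraries, although the log2 fold change stayed between 0.45 and 0.66 in the 17 alternatives that gave one. It was lost without PD-L1 3'UTR replicate 1 (adjusted p = 0.0753) or 3 (0.0677), without MS2 control replicate 1 (0.0531), 2 (0.0506) or 3 (0.113), and without input replicate 2 (0.0855). It was also lost with a minimum mean of 10 CPM (adjusted p = 0.0578) and with no filter on low counts (0.175). Against the input, the call held without PD-L1 3'UTR replicate 1 (log2 0.71, adjusted p = 0.0157) and was lost only with no filter (log2 0.60, adjusted p = 0.141). With 3 against 3 libraries an exact two-sided permutation test of a share cannot go below 0.1. That value was reached in all 3 comparisons for miR-138 and miR-140, in both comparisons of the PD-L1 3'UTR for miR-142, and in both comparisons of the MS2 control for miR-340. It shows only that the shares of the groups did not overlap, however small the difference. For miR-197 it was also reached in all 3 comparisons, and for miR-155 in both comparisons with the input. The mean share of miR-155-5p was 100% in the input, 99.99% on the MS2 control and 99.98% on the PD-L1 3'UTR.

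**Figure D3:**
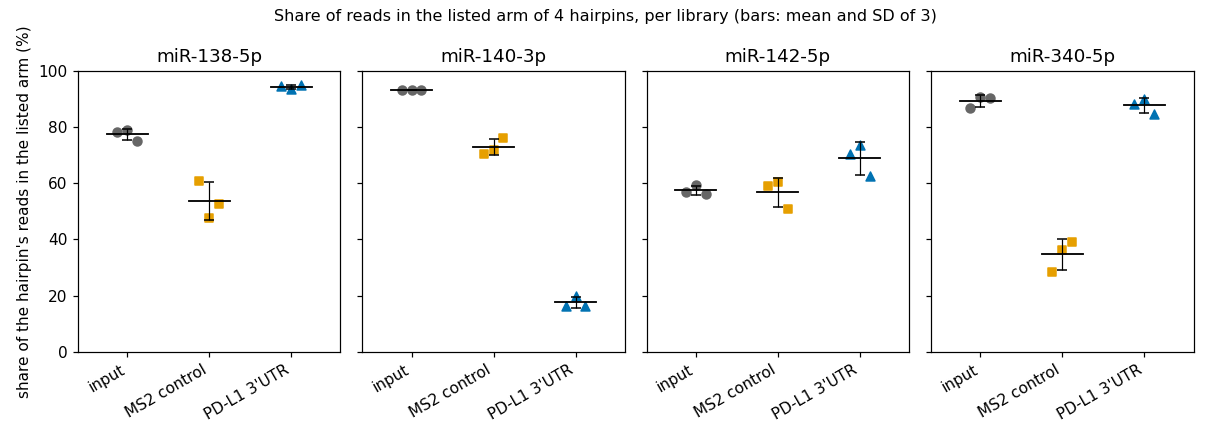
Share of each hairpin's reads (%, linear axis from 0) held by the listed strand, per library, with bars at the mean and SD of 3 replicates. The share for miR-140-3p falls from 93.1% in the input to 17.6% on the PD-L1 3'UTR, that for miR-138-5p rises to 94.2%, and that for miR-340-5p is low on the MS2 control only, at 34.7%.

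The other hairpins gave few counts of their second strand. miR-155-3p had 0 counts in the input, 2, 3 and 2 on the MS2 control and 6, 3 and 12 on the PD-L1 3'UTR, beside at least 15944 of miR-155-5p in each library. miR-197-5p had 19, 12 and 18 counts in the input, 5, 23 and 11 on the MS2 control and 0 in each PD-L1 3'UTR library. miR-873-3p had 14, 18 and 25 counts in the input and 2 to 13 in the trapped libraries. Both strands of miR-873 were thus low. Its listed strand took 55.6% ± 10.2 of the reads in the input, 30.7% ± 31.9 on the MS2 control and 65.2% ± 16.0 on the PD-L1 3'UTR. miR-34a-3p and miR-513a-3p had 0 counts throughout, miR-570-5p had 2 in the input libraries together, and miR-138-2-3p had 2 in the PD-L1 3'UTR libraries together.

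The reads of miR-138-5p were split between its identical copies. The copy on chromosome 3 held 78.3%, 76.7% and 76.4% of its counts in the input, 51.0%, 59.3% and 55.6% on the MS2 control and 60.7%, 63.6% and 61.4% on the PD-L1 3'UTR. The input libraries were the highest, and all 6 trapped libraries lay below them. The mature sequence is the same at both copies, and the first hairpin base after it is U in MIR138-1 and A in MIR138-2. Reads that end within the mature sequence cannot be assigned to a copy, so the counts were summed.

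Seed matches of the 10 miRNAs were sought in the CD274 3'UTR of transcript CD274-202, which spans chr9:5467863-5470554 (+, GRCh37, 2692 bases) within exon 7. How much of this 3'UTR the bait held was not analysed here. A match to seed bases 2 to 8 is called 7mer-m8, one to bases 2 to 7 followed by A is called 7mer-A1, and both together make an 8mer. Only the strand of the mRNA was searched. Of the 10 miRNAs, 9 had at least 1 such match, 14 matches in all, and miR-197-3p had none. Of 5485 human 3'UTR windows of the same length, between 25.3% (miR-155-5p) and 52.1% (miR-570-3p) held a match for a given listed miRNA, and 39.7% held one for miR-197-3p. A match is a description of letters and does not show binding.

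The matches of the miRNAs that were higher than the MS2 control are shown with their surroundings, in mRNA sense on GRCh37, with the match in capitals.
miR-155-5p 7mer-m8, chr9:5469197-5469203: actggaattccttttctAGCATTAta
miR-155-5p 7mer-A1, chr9:5470449-5470455: tgtcactttttgtacctGCATTAAtt
miR-340-5p 7mer-A1, chr9:5468812-5468818: ctgccacccactgtcctTTTATAAta
miR-142-5p 7mer-m8, chr9:5470360-5470366: tgttggatttgtaaggcACTTTATcc
miR-138-5p 7mer-m8, chr9:5470021-5470027: cttgaacccttgaatgcCACCAGCtg
miR-138-5p 8mer, chr9:5470493-5470500: attttgttacttggtaCACCAGCAtg
miR-140-3p 7mer-m8, chr9:5467905-5467911: aagcagggattctcaacCTGTGGTtt
miR-140-3p 7mer-A1, chr9:5468655-5468661: tatcagctttacaattaTGTGGTAgc
miR-140-5p 8mer, chr9:5468710-5468717: accaccctgttgtgatAACCACTAtt
miR-142-3p 7mer-A1, chr9:5470034-5470040: atgccaccagctgtcatCACTACAca
The only 8mer among the 10 listed miRNAs was that of miR-138-5p, which was called against the MS2 control but not against the input. The match of miR-142-5p shares 6 bases with the 8mer of miR-17-5p at chr9:5470358-5470365. miR-17-5p was itself higher on the PD-L1 3'UTR than on the MS2 control (log2 6.71 ± 0.19, adjusted p = 1.87e-09, and 6.87 without PD-L1 3'UTR replicate 1). miR-140-5p, the strand with the largest rise among the tested strands of these hairpins, had an 8mer, and a match for its seed was held by 22.4% of the windows. miR-142-3p had a 7mer-A1. miR-340-3p and miR-138-1-3p, which were lower on the PD-L1 3'UTR than on the MS2 control, had no match of 7 bases or more. Against the input, however, miR-340-3p was higher (log2 1.65) and miR-138-1-3p was lower (log2 -2.09).

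**Figure D4:**
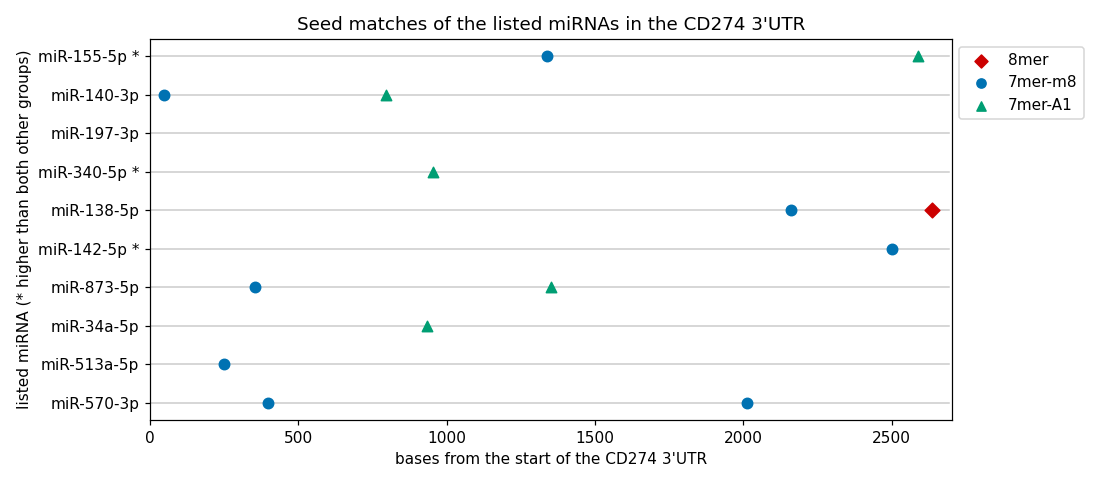
Position of each seed match of 7 bases or more in the CD274 3'UTR, as the distance in bases from its start, with one row per listed miRNA in the order of the input level and symbols for the match type. Asterisks mark the 3 retained miRNAs. Of the 14 matches, 1 is an 8mer (miR-138-5p), and the row of miR-197-3p is empty.

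Matches also occurred among miRNAs that were not retained. Among the 371 tested miRNAs with a RefSeq sequence, 104 had a match of 7 bases or more. Of these, 42.3% were higher on the PD-L1 3'UTR than on the MS2 control, as were 27.0% of the 267 without a match. Against the input the shares were 47.1% and 28.5%. The sets also differed without the PD-L1 bait, since 23.1% and 35.6% were higher on the MS2 control than in the input. With PD-L1 3'UTR replicate 1 left out, 115 had a match and 309 had none. The shares higher on the PD-L1 3'UTR were then 36.5% and 21.0% against the MS2 control and 41.7% and 22.3% against the input. Those higher on the MS2 control than in the input were 24.3% and 33.7%. The 4 untested members had 6 of the 14 matches. miR-570-3p, at 0 counts, had 2 matches of the 7mer-m8 kind, at chr9:5468256-5468262 and chr9:5469871-5469877.

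For each tested miRNA, the non-listed miRNAs with the most similar profile over the 9 libraries were found by the root mean square difference of log2 CPM centred on its mean. The profile of miR-340-5p was closest to miR-450b-5p (0.19) and miR-30e-5p (0.21), and that of miR-138-5p to miR-181a-5p (0.20) and miR-19b-3p (0.21). miR-140-3p was closest to miR-374b-5p (0.24) and miR-181d-5p (0.25), miR-142-5p to miR-3152-3p (0.30) and miR-450a-5p (0.34), and miR-155-5p to miR-425-5p (0.33) and miR-455-5p (0.33). miR-197-3p had no neighbour as close, with miR-342-3p at 0.49 and miR-5100 at 0.55. The median difference over all tested miRNAs was between 1.23 and 2.23. These values describe likeness over 9 libraries of 3 groups and say nothing of shared control. Over the 8 libraries without PD-L1 3'UTR replicate 1, 9 of these 12 names were again among the closest pair.

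Other miRNAs with published links to PD-L1 were measured in the same libraries. Of a further list of 27, 19 were tested, and 14 were higher and 2 lower on the PD-L1 3'UTR than on the MS2 control, with a median log2 fold change of 3.05. Of all 408 tested miRNAs 31.4% were higher and 28.7% lower, with a median of 0.02. Against the input 14 of the list were higher (34.1% of all tested) and 2 lower (32.4%), and 12 were higher than both (18.9%). When PD-L1 3'UTR replicate 1 was left out, 13 were higher and 2 lower in each comparison, where 25.2% and 27.5% of all tested miRNAs were higher, 11 were higher than both (13.9% of all tested), and the median against the MS2 control was 2.54. miR-106b-5p (log2 7.67 ± 0.25 against the MS2 control) and miR-17-5p led, whereas let-7a-5p (log2 -3.23 ± 0.22) and let-7b-5p (log2 -2.53 ± 0.19) were lower. Without that library the fold changes of miR-106b-5p, let-7a-5p and let-7b-5p were 7.78, -3.16 and -2.67 on the log2 scale. The fold changes of miR-155-5p, miR-340-5p and miR-142-5p over the MS2 control, from 1.32 to 2.55, all lay below that list's median. However, these miRNAs were chosen from outside the leading families of this experiment, whereas the further list includes miR-17-5p and miR-106b-5p. Relatives with the same seed were counted there as separate names. Both lists were chosen with earlier results of these data known. The further list's counts and median, and the lower place of the members, therefore partly reflect the choice of names. No conclusion is drawn from this comparison.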

How the data were processed

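Single-end small RNA sequencing of ES-2 lysates gave 9 libraries, for which the authors deposited raw counts of reads at each mature miRNA locus. Per the submitters' processing notes, reads were trimmed with cutadapt 1.18, aligned with Bowtie2 2.2.6 and counted with featureCounts 1.6.3, with hg38 named as build. The study's methods name miRBase annotations and more than 1 build. Titles of the samples gave the groups and replicate numbers. The 2883 locus rows were summed to 2652 names, since identical copies share reads. Replicates were compared by chi-square statistics, and no pair agreed within sampling noise.

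All fits were made in R 4.3.3 with edgeR 4.0.16, filterByExpr by group (408 miRNAs kept), TMM factors and 1 quasi-likelihood model of 3 group means over all 9 libraries. Tests were two-sided, with Benjamini-Hochberg adjustment over all 408 and a threshold of 0.05. TMM scaling takes most miRNAs as unchanged between libraries, and trapping may break that assumption. Retained means called higher in both comparisons of the PD-L1 3'UTR, which share libraries. Floors are 3 counts and cover counting error only, because reads copied by PCR are not independent molecules. The procedure was tested on simulated counts. Alternatives were DESeq2 1.42.0 and its size factors, library totals, other filters, separate loci, only the groups compared, robust empirical Bayes, a block for the replicate number, and each library left out in turn.

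Seed matches were sought with Python 3.11.15 in the GENCODE 3'UTR on GRCh37, and mature sequences came from RefSeq. The members and lists were chosen with earlier results of these data known. Named are the 10 members, the other strands of their hairpins, seed partners, the 2 closest profiles per tested member, marker miRNAs of other cell types and at most 4 of the further published list. miR-17-5p was also named for its overlapping site after its values were seen. Likeness used log2 CPM with a prior count of 2.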

Additional observations from a re-analysis of the deposited data

How the results depend on the processing

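Across 18 alternatives per comparison, the 6 tested miRNAs kept their direction and their side of the threshold in 316 recomputed log2 fold changes, turned direction in 4, newly passed in 3 and lost their call in 1. The difference of miR-138-5p from the input turned from 0.22 to -0.034 with no filter on low counts, to -0.17 with the copy with most counts in place of their sum, and to -0.0105 without input replicate 1. That of miR-155-5p between the MS2 control and the input turned from 0.24 to -0.0188 with no filter, and none of these values passed the threshold. Library totals made miR-138-5p against the input pass (0.79), ended the call of miR-140-3p there (-0.26) and made the rises of miR-142-5p (0.91) and miR-155-5p (0.87) in the MS2 control against the input pass. They moved the median of all tested miRNAs in that last comparison by 0.63 and the share of its calls that were higher from 47.0% to 65.7%. The cause was not tested. Counting only 8mers left 1 of the 10 miRNAs with a seed match. On the copy of miR-138 with the most reads, the share of the listed strand was 72.5% in the input, 39.0% in the MS2 control and 91.0% with the PD-L1 3'UTR. Leaving out each library gave 5 members called against the MS2 control, 5 against the input and 4 in the MS2 control against the input each time, with 3 higher than both. Most of all tested miRNAs were called in each of these fits too. Without PD-L1 3'UTR replicate 1, for example, 25.2% of 469 were higher and 28.6% lower than on the MS2 control. Against the input the shares were 27.5% and 31.6%, and in the MS2 control against the input 31.1% and 36.2%. Correlations of same-numbered deviations ran from -0.18 to 0.13, so the replicate numbers paired the libraries weakly at most. Each PD-L1 3'UTR library correlated best with the MS2 control library of its own number. With the replicate number as a block, 5, 5 and 4 members and 243, 263 and 276 of all miRNAs were called, against 245, 271 and 285 without it, and it changed no call of a member. With no filter, 323, 362 and 361 of 1500 miRNAs were called. Members called were then 6 against the MS2 control (all higher), 5 against the input (3 higher, 2 lower) and 5 in the MS2 control against the input (all lower), with 3 higher than both. The added calls, miR-34a-5p over the MS2 control and miR-873-5p below the input in the MS2 control, were not tested with the filter. At the depth of the trapped libraries, levels under 4.02 CPM could not be told from 0 in the shallowest.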
